A study of Mus musculus with 98 samples.

Results

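The genes described here share a daily rhythm in the 22 mouse brain libraries labelled suprachiasmatic nucleus (SCN), out of 98 libraries in the series. All 22 libraries were taken, whatever their values: 12 from mice with a murine liver graft (Mu) and 10 from mice with a human liver graft (Hu). The study asks how the clock of hepatocytes bears on the timing of the rest of the body. All mice were male, 10 weeks old and of the FRGN line, which carries Fah-/-, Rag2-/- and Il2rg-/- on a non-obese diabetic background and so lacks most lymphocytes. Their own hepatocytes had been replaced by transplanted human or murine cells, with human repopulation above 70% in the Hu arm. Both arms received nitisinone (NTBC) at 8 mg/l with sulfamethoxazole at 640 µg/ml, trimethoprim at 128 µg/ml and 3% dextrose for 3 days every 5 weeks. Tissue was taken at ZT 2, 6, 10, 14, 18 and 22, where ZT counts hours in the light-dark cycle. Each arm had 2 libraries at each time, except that Hu had 1 at ZT 6 and 1 at ZT 22. All genes named are mouse genes, and the controls carry the same deletions and drug as the Hu mice.

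The mammalian clock is a loop of transcription in which BMAL1 (gene Arntl) and CLOCK switch on the Period and Cryptochrome genes through E-box elements, and the PER and CRY proteins then repress BMAL1 and CLOCK. A second loop runs through the nuclear receptors REV-ERB (Nr1d1, Nr1d2) and ROR, which compete at ROR elements, and a further set of factors (DBP, TEF, HLF and their repressor NFIL3) acts at D-boxes. The SCN is the master pacemaker of the hypothalamus, set by light from the retina, and it times hormones, body temperature, sleep and feeding.

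The elements through which these loops act, and a further element from outside these loops, can be read in the promoters of several of the rhythmic genes below. They are shown because their genes peaked at different times of day: Ciart and Per3 by day, Nfil3 and Arntl late in the night, and Hspa5, Pdia6, Calr and Creld2 at night. The sequences come from RefSeq (GRCm38.p6), 5′ to 3′ on the strand of the gene. Each is the 250 bases before the start, except that of Arntl, which is 27 bases around a match at +31. Capitals mark the element, searched on both strands: the E-box CACGTG in Ciart, the D-box TTATGTAA in Per3, the ROR element TAGGTCA in Nfil3 and Arntl, and the endoplasmic reticulum (ER) stress element, CCAAT then any 9 bases then CCACG, in the other 4. Only the element named for each gene is marked. The window of Calr also holds an E-box, left in small letters.
Ciart: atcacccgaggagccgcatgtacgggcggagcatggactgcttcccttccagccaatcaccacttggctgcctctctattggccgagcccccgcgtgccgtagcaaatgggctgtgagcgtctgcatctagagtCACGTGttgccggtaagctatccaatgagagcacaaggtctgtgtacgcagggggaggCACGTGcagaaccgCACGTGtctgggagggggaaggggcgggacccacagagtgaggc
Per3: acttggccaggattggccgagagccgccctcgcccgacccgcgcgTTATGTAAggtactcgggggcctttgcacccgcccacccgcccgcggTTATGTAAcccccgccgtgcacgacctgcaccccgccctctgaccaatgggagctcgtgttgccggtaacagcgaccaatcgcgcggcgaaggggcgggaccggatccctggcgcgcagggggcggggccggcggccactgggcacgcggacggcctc
Nfil3: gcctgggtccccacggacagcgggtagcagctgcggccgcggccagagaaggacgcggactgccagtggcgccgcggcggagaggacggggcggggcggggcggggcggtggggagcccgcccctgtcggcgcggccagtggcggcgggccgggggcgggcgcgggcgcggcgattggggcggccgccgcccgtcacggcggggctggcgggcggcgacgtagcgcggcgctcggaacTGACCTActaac
Arntl: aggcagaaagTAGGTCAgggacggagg
Hspa5: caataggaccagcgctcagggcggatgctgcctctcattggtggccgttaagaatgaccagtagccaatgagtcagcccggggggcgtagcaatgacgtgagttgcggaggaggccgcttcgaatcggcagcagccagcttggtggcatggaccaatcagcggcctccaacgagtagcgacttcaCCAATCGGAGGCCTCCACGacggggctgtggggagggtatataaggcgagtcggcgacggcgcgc
Pdia6: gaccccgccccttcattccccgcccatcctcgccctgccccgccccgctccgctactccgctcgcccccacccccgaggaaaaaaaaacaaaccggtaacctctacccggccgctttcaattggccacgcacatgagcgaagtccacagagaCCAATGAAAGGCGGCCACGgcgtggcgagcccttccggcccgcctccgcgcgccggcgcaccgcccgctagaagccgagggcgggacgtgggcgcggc
Calr: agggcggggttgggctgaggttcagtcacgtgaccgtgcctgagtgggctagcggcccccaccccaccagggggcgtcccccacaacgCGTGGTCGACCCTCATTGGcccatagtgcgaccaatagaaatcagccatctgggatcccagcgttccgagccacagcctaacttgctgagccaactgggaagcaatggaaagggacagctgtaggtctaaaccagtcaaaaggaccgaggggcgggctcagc
Creld2: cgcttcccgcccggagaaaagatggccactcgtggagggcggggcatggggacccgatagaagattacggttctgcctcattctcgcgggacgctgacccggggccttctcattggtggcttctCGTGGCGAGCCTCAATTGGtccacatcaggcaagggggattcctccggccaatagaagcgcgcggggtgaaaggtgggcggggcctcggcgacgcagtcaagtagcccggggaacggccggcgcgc
The windows lie at chr3:95882229-95882478, minus strand (Ciart), chr4:151044666-151044915, minus strand (Per3), chr13:52981040-52981289, minus strand (Nfil3) and chr7:113207531-113207557, plus strand (Arntl). Those of the ER genes lie at chr2:34771840-34772089, plus strand (Hspa5), chr12:17266339-17266588, plus strand (Pdia6), chr8:84846932-84847181, minus strand (Calr) and chr15:88819396-88819645, plus strand (Creld2). The 3 E-boxes of Ciart begin at -116, -58 and -44 from the start, and the 2 D-boxes of Per3 at -205 and -158. The ER stress elements begin at -65 in Hspa5, -98 in Pdia6, -162 in Calr and -126 in Creld2.

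The tissue label was checked against marker genes, and the SCN markers went against it. Of 15 SCN markers, 9 were lower in the 22 libraries labelled SCN than in the 22 labelled arcuate nucleus (ARC), a neighbouring hypothalamic nucleus, and 1 was higher. Over all genes tested, 34.2% were lower and 37.9% higher. Six6, a transcription factor needed to form the SCN, was at 1.42 ± 1.71 CPM (SD, n = 22; CPM is the count divided by the TMM-scaled library total in M) in the libraries labelled SCN and at 10.2 ± 2.98 CPM (SD, n = 22) in those labelled ARC, a log2 difference of -2.99 ± 0.277 (SE; adjusted p = 2.04e-12). Syt10, a synaptotagmin enriched in SCN neurons, differed by -2.84 ± 0.154 (SE; adjusted p = 4.48e-19), and the exception was Prok2, a secreted SCN output signal, at +0.85 ± 0.226 (SE; adjusted p = 0.000966). ARC markers (9 of 10 lower), markers of neighbouring nuclei (9 of 10) and ependymal markers (8 of 8) were lower as well, while 9 of 10 endothelial and 9 of 10 mural and meningeal markers were higher. The libraries are therefore called by their label only.

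**Figure D1:**
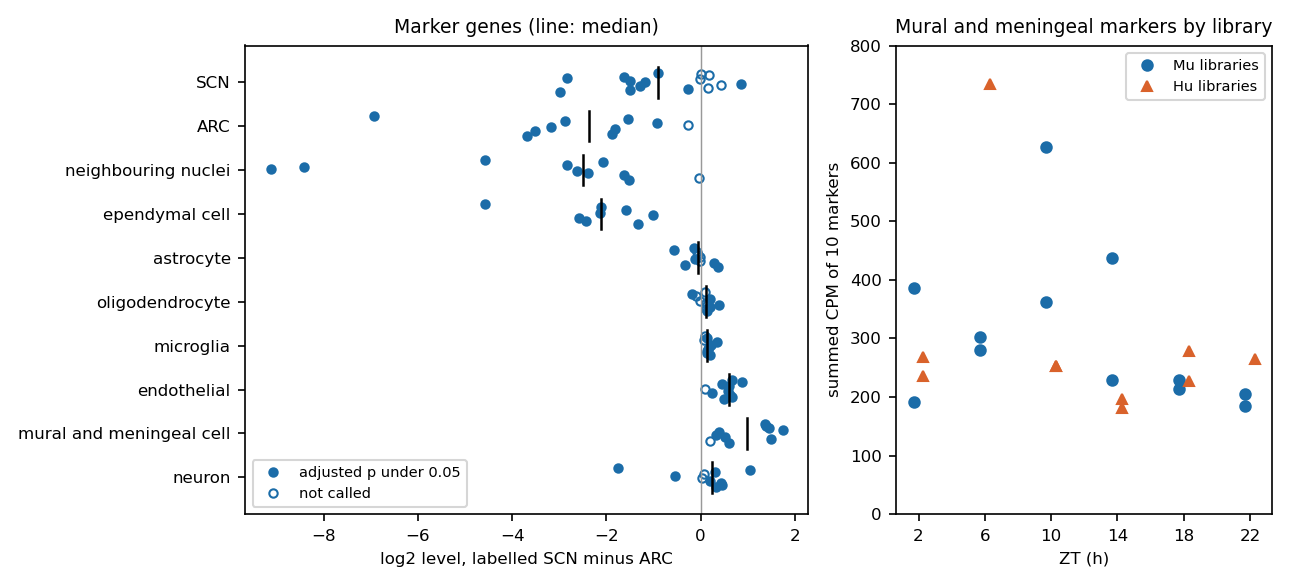
Left: log2 level in the 22 libraries labelled SCN minus the 22 labelled ARC for each marker gene, by list, with filled points past an adjusted p of 0.05 and a line at the median of each list, -0.91 for SCN markers and 0.98 for mural and meningeal markers. Right: summed CPM of the 10 mural and meningeal markers in each library labelled SCN against ZT in hours, with circles for Mu and triangles for Hu; the sum ran from 181 to 735 and was highest in 1 Hu library at ZT 6.

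Sequencing depth was 25.5 to 34.9 M counts per library. Mu ZT 2 replicate 2, Hu ZT 6 replicate 1 and Mu ZT 14 replicate 2 correlated least with the median library (r = 0.976, 0.984 and 0.986, across genes), and the 2 Mu libraries stood apart on the first principal component. Mu ZT 2 replicate 2 had the highest summed astrocyte markers (5329 CPM, against 2503 to 3801 in the other libraries) and the lowest summed oligodendrocyte markers (3822 CPM), Mu ZT 14 replicate 2 the lowest summed SCN markers (140.3 CPM), and Hu ZT 6 replicate 1 the highest summed mural and meningeal (735 CPM) and endothelial markers (387 CPM). Counts are given with and without the 2 Mu libraries, and without all 3, both chosen after seeing the data. In tissue pieces, fewer cells of a type and less RNA per cell cannot be told apart.

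A rhythm common to both arms was found for 228 of 15006 genes tested (1.52%). For each gene the fit held the arm as a term plus a 24 h cosine and sine, tested together with edgeR's quasi-likelihood F test and Benjamini-Hochberg adjustment over all genes, at an adjusted p of 0.05; all adjusted p-values of rhythms below are from that test. Without an adjustment, 2822 genes (18.8%) were under 0.05. Amplitude here is the log2 distance from the daily mean to the peak, and the peak time is that of the fitted curve. The median amplitude of the called genes was 0.28, which is a 1.47-fold change from trough to peak, against 0.09 over all genes tested. Only 37 of the 228 reached an amplitude of 0.5, while 103 stayed under 0.25. Peaks fell into a daytime and a night-time group: 41 genes (0.273% of those tested) peaked from ZT 0 to 6, 73 (0.486%) from ZT 6 to 12, 45 (0.3%) from ZT 12 to 18 and 69 (0.46%) from ZT 18 to 24. The fullest 2 h window was ZT 18 to 20, with 43 genes.

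The count depended on single libraries. Leaving out each library in turn gave between 109 and 445 called genes, and 89 of the 228 stayed called in all 22 of these fits. The count moved by over 1.5 times without each of 8 libraries: to 121 and 445 without Mu ZT 10 replicates 1 and 2, 128 without Mu ZT 14 replicate 1, 113 without Mu ZT 18 replicate 2, 109 and 128 without Mu ZT 22 replicates 1 and 2, 368 without Hu ZT 2 replicate 1, and 138 without Hu ZT 6 replicate 1. Without both libraries that stand apart it was 408, with 201 of the 228 among them, and without all 3 it was 207, with 139 among them. At the threshold, Krt73, a keratin, was the last gene inside (adjusted p = 0.0499) and Btn2a2, a butyrophilin, the first outside (0.0502).

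**Figure D2:**
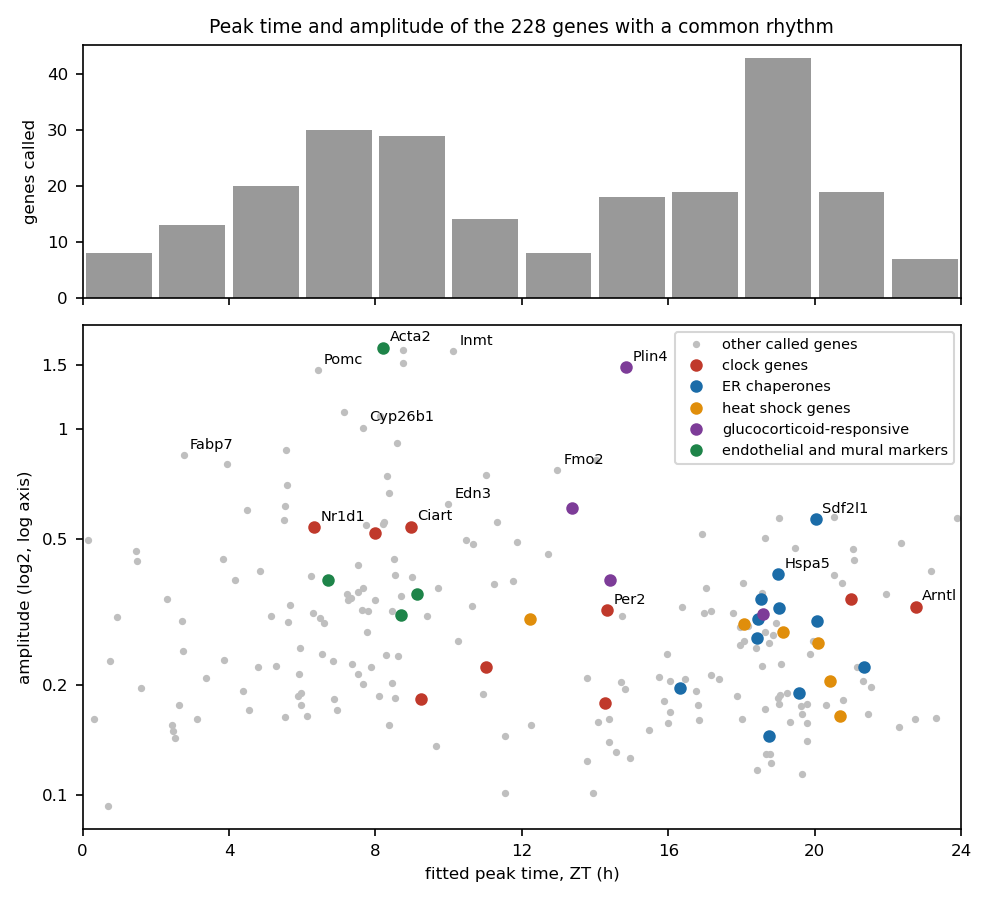
Top: number of called genes in each 2 h window of fitted peak time (ZT, h). Bottom: amplitude (log2, on a log axis) against peak time for each of the 228 called genes, with listed groups in colour; ER chaperones and heat shock genes gather near ZT 18 to 21 except Herpud1 (ZT 16.3) and Rbm3 (ZT 12.2), vessel markers near ZT 7 to 9, and the clock genes spread around the day.

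Of 21 clock genes, all passed the filter on low counts and 9 rose and fell with the day: Nr1d1, Dbp, Ciart, Hlf, Per3, Per2, Cry1, Nfil3 and Arntl, in order of peak time. The median amplitude of the 21 was 0.18, against 0.09 for all genes tested, of which 1.52% were called. Without the 2 libraries that stand apart 11 of the 21 were called, without all 3 there were 8, and leaving out each library gave 5 to 10, with 5 without either Mu library of ZT 22. Time as a factor gave 4, and leaving out a whole time point gave 3 (ZT 10) to 9.

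Ciart, a repressor of BMAL1 and CLOCK also named CHRONO, had the smallest adjusted p among the clock genes. Its CPM in the order Mu then Hu was 9.54, 8.16, 9.06 and 12.8 at ZT 2, 13.7, 12.9 and 16.3 at ZT 6, 18.5, 18.5, 15.7 and 16.6 at ZT 10, 10.4, 12.3, 11.2 and 10.9 at ZT 14, 9.45, 9.07, 7.26 and 9.95 at ZT 18, and 8.33, 7.71 and 7.94 at ZT 22. All libraries of ZT 10 lay above all of ZT 22, in both arms. Here and below, the times compared in this way were mostly those of highest and lowest mean, picked from the same values. Such times also did not overlap for genes that were not called, among them Per1, Fos and Btg2. A lack of overlap therefore describes the values and is no further test of a rhythm. The fitted amplitude of Ciart was 0.54 ± 0.058 (SE), with the peak at ZT 8.96 ± 0.392 h (SE; adjusted p = 1.33e-04). This is the gene with 3 E-boxes in the promoter printed above. Among promoters of 300 bases (250 before to 50 after the start), 11.3% of the 11572 tested genes matched to RefSeq held an E-box, and 18 of 182 matched called genes (9.89%) did.

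The receptor gene Nr1d1 (REV-ERBα), which represses Arntl, read 64.0 to 83.8 CPM at ZT 2, 75.6, 75 and 106 CPM at ZT 6, and 39.1, 37.4 and 46.5 CPM at ZT 22. The times ZT 6 and ZT 22 did not overlap. Its amplitude was 0.54 ± 0.067 (SE) and its peak ZT 6.33 ± 0.462 h (SE; adjusted p = 7.72e-04). Its relative Nr1d2 did not pass (amplitude 0.22, peak ZT 11.4, adjusted p = 0.0947).

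Arntl, which encodes BMAL1, peaked late in the night. It read 30.1, 38.3, 26.9 and 23.6 CPM at ZT 2 and 27.9, 27.8 and 30.3 CPM at ZT 22, against 17.8, 21.5, 17.3 and 19.8 CPM at ZT 10. Every library of ZT 10 was below every library of ZT 22. The amplitude was 0.33 ± 0.046 (SE) and the peak ZT 22.8 ± 0.537 h (SE; adjusted p = 0.00186). Its partners and relatives Clock, Npas2 and Arntl2 did not pass (adjusted p = 0.596, 0.143 and 0.977). Npas2 read 29.1 and 35.1 CPM in the Mu libraries of ZT 2 but 10.2 and 11.99 CPM in the Hu libraries of that time.

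Nfil3, the repressor at D-boxes, peaked near Arntl, at ZT 21 ± 0.557 h (SE; adjusted p = 0.00344). It read 9.38, 9.53 and 9.55 CPM at ZT 22 and 6.06, 5.32 and 5.40 CPM at ZT 6, which did not overlap. Nfil3 and Arntl were the 2 of the 8 called clock genes with a matched promoter that held the ROR element TAGGTCA. The element was in 2.14% of matched tested genes and in 6 of the 182 matched called genes (3.3%), the other 4 being Fabp7, S100a16, Nhlrc3 and Eml1.

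The activators at D-boxes peaked by day. Dbp read 128, 118, 72.1 and 71.1 CPM at ZT 10 and 48.5, 46.3 and 42.9 CPM at ZT 22, with an amplitude of 0.52 ± 0.105 (SE) and a peak at ZT 7.99 ± 0.742 h (SE; adjusted p = 0.0347). Hlf had a smaller amplitude, 0.18 ± 0.035 (SE), and a peak at ZT 9.25 ± 0.703 h (SE; adjusted p = 0.0202). Dbp stayed called in 15 of the 22 fits that each left out 1 library and Hlf in 19, and the highest adjusted p was 0.081 for Dbp without Mu ZT 10 replicate 1 and 0.0557 for Hlf without Mu ZT 22 replicate 2. Tef, the third activator of this kind, missed the threshold (amplitude 0.11, adjusted p = 0.149).

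Of the Period and Cryptochrome genes, Per2, Per3 and Cry1 passed. Per2 read 41.6, 44.0, 41.5 and 36.7 CPM at ZT 14 and 25, 23.5 and 27.9 CPM at ZT 6, with an amplitude of 0.32 ± 0.052 (SE) and a peak at ZT 14.3 ± 0.639 h (SE; adjusted p = 0.00639). Those times did not overlap, and Per2 was called in all 22 fits that left out a library. Cry1 peaked at the same time, ZT 14.3 ± 0.819 h (SE), with an amplitude of 0.18 ± 0.037 (SE; adjusted p = 0.0354). Per3 peaked earlier, at ZT 11 ± 0.828 h (SE), with an amplitude of 0.22 ± 0.048 (SE; adjusted p = 0.0457). Both calls were close to the threshold: Cry1 stayed called in 13 of the 22 fits and Per3 in 7, with adjusted p up to 0.0839 (without Mu ZT 14 replicate 1) and 0.0992 (without Mu ZT 22 replicate 1). Per1 had an amplitude of 0.18 ± 0.073 (SE) and an adjusted p of 0.297, and it read 36.2 to 70.7 CPM among the 4 libraries of ZT 2 alone. Cry2 (adjusted p = 0.160), Bhlhe40 (0.273), Bhlhe41 (0.438), Rora (0.869) and Rorb (0.380) did not pass.

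**Figure D3:**
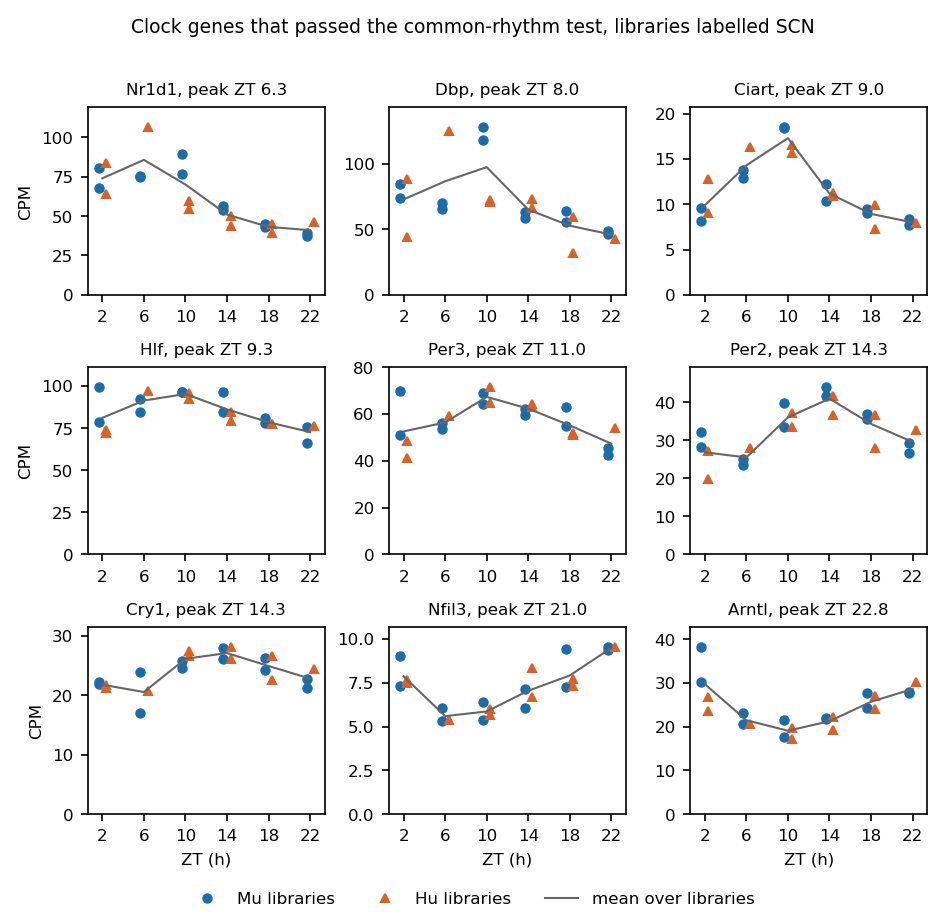
CPM of the 9 called clock genes in each library labelled SCN against ZT in hours, from a zero baseline, with circles for Mu, triangles for Hu and a line through the mean of each time. Nr1d1, Dbp and Ciart are highest at ZT 6 to 10, Per2 and Cry1 at ZT 14, and Nfil3 and Arntl at ZT 22 to 2.

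Genes of protein folding in the ER were prominent among those that peaked at night. This compartment folds secreted and membrane proteins, and its chaperones are induced through XBP1, ATF6 and ATF4 when unfolded protein builds up. Of 20 listed genes 11 passed, and 10 of them peaked between ZT 18 and 24: Manf, Pdia6, Xbp1, Hspa5, Calr, Creld2, Sdf2l1, Dnajb11, Pdia4 and Pdia3. Herpud1, a degradation factor, was the other, at ZT 16.3. Pdia3 and Herpud1 stayed called in only 6 and 5 of the 22 fits that left out 1 library, and the rest in all of them. The median amplitude of the 20 was 0.19, against 0.09 for all genes tested, of which 1.52% were called. The count was also 11 without the 2 libraries that stand apart, 10 without all 3 and 9 to 12 when each library was left out. It was 7 with covariates that scored the oligodendrocyte markers and the SCN markers Six6, Lhx1 and Zfhx3. Time as a factor gave 4, leaving out ZT 10 also gave 4, and leaving out ZT 6 or 22 gave 5. The summed markers of neighbouring nuclei were high and low at the same times. They were at 178 ± 24.7 CPM (SD, n = 3) at ZT 22 and 59.4 ± 14.5 CPM (SD, n = 3) at ZT 6, with a range of 34.1 to 263 CPM over all libraries. No covariate held these markers, and their part in the result was not tested.

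Hspa5, the main ER chaperone (BiP), was the most abundant called gene. Its CPM, Mu then Hu, was 363, 280.1, 379.6 and 359.6 at ZT 2, 312, 302 and 254 at ZT 6, 263, 348, 323 and 348 at ZT 10, 438, 379, 503 and 355 at ZT 14, 453, 558, 489 and 397 at ZT 18, and 506, 505 and 508 at ZT 22. The libraries of ZT 18 and 22 all lay above all of ZT 2, 6 and 10. The amplitude was 0.40 ± 0.055 (SE) and the peak ZT 19 ± 0.503 h (SE; adjusted p = 0.00133).

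The disulfide isomerase Pdia6 read 134, 133 and 136 CPM at ZT 22 and 92.8, 86.1 and 86.4 CPM at ZT 6, with a peak at ZT 20.1 ± 0.480 h (SE; adjusted p = 9.86e-04). The transcription factor Xbp1, which drives this response, read 107 to 122 CPM at ZT 22 and 76.5 to 78.8 CPM at ZT 6, and peaked at ZT 18.5 ± 0.493 h (SE; adjusted p = 9.86e-04). Manf, a secreted factor released under ER stress, peaked at ZT 19 ± 0.458 h (SE; adjusted p = 7.72e-04). All 3 were called whichever library was left out. The largest amplitude of the group was that of Sdf2l1, a cofactor of BiP, at 0.57 ± 0.090 (SE; adjusted p = 0.00689).

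The other 9 members did not pass. The chaperones Hsp90b1 (amplitude 0.17, peak ZT 20.2, adjusted p = 0.108), Dnajc3 (0.17, ZT 18.1, 0.107) and Hyou1 (0.17, ZT 19.3, 0.207) had fitted peaks in the same hours. The stress-response factors Atf4, Ddit3 (CHOP) and Trib3 had adjusted p of 0.437, 0.538 and 0.232, with Atf4 and Ddit3 at amplitudes of 0.07 and 0.06. Dnajb9, Canx and Sel1l had adjusted p of 0.115, 0.535 and 0.542. The ER stress element was found in 7 of the 18 listed genes with a matched promoter (38.9%) and in 0.173% of all matched tested genes. Among the 10 called members with a promoter it was in 4, those printed above, and the other 3 holders, Hsp90b1, Canx and Dnajc3, were not called. A match describes these letters and not a bound site.

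Cytosolic chaperones peaked in the same part of the night. Of 22 heat shock and temperature genes 6 passed, against 1.52% of all genes tested. Without the 2 libraries that stand apart, and also without all 3, there were 7. Leaving out each library gave 3 to 8, with 3 without Mu ZT 22 replicate 1. Limma voom called 12, time as a factor 2, and leaving out ZT 10 or 22 gave 1. Dnajb1, a co-chaperone of HSP70, read 66.2 to 85.9 CPM at ZT 14 and 49.8 to 55.7 CPM at ZT 6, with an amplitude of 0.29 ± 0.041 (SE) and a peak at ZT 18.1 ± 0.523 h (SE; adjusted p = 0.00183). Hsph1 (HSP110) peaked at ZT 20.4, Fkbp4 at ZT 20.1, Ahsa1 at ZT 20.7 and Chordc1 at ZT 19.1, all of them partners of HSP70 or HSP90, with amplitudes of 0.20, 0.26, 0.16 and 0.28. Among the fits that left out 1 library, Hsph1 lost its call without Mu ZT 22 replicate 1 (adjusted p = 0.0552).

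The cold-inducible RNA-binding gene Rbm3 had another time of day. It read 99.3, 109.9, 97.1 and 113 CPM at ZT 10 and 66.7, 59.0 and 74.7 CPM at ZT 22, which did not overlap, with an amplitude of 0.30 ± 0.048 (SE) and a peak at ZT 12.2 ± 0.623 h (SE; adjusted p = 0.00663). Cirbp, the other cold-inducible gene of the list, did not pass (amplitude 0.17, peak ZT 8.0, adjusted p = 0.186).

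Several other RNA-binding genes were among those called, picked here after their values were seen. Sfpq, a paraspeckle protein that also acts in splicing and in PER repression, read 84.1, 96.3 and 93.1 CPM at ZT 6 and 143, 151, 141 and 122 CPM at ZT 18. Those times did not overlap, and its peak was ZT 18.9 ± 0.467 h (SE; adjusted p = 8.24e-04). The splicing regulators Tra2a and Hnrnpm peaked at ZT 18.9 and 20.3, and Tra2b at ZT 16.8, with amplitudes of 0.27, 0.18 and 0.18. Hnrnpdl peaked at ZT 6.87 and stayed called in 10 of the 22 fits that left out a library. As a family, 2 of 31 SR and hnRNP proteins were called, against 1.52% of all genes tested, with a median amplitude of 0.07 against 0.09 for all genes. Of 77 cytosolic ribosomal protein genes none was called, though 45 had an unadjusted p under 0.05 in edgeR's test, against 18.8% of all genes.

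Around the start of the night the called genes included targets of the glucocorticoid receptor, which is active when corticosterone peaks before the active phase. Of 20 listed genes, 19 passed the filter and 4 were called, against 1.52% of all genes tested: Plin4, Zbtb16, Tsc22d3 and Cdkn1a. Without the 2 libraries that stand apart 5 were called, without all 3 there were 4, and leaving out each library gave 3 to 5. DESeq2 called 8 and limma voom 11, while time as a factor, or leaving out ZT 2, 10 or 14, gave 1.

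Plin4, a coat protein of lipid droplets, had an amplitude of 1.48 ± 0.184 (SE), the largest of the called genes that peaked after ZT 12. Its CPM, Mu then Hu, was 2.16, 3.39, 3.13 and 6.34 at ZT 2, 2.68, 4.26 and 7.50 at ZT 6, 11, 8.13, 25.7 and 15.9 at ZT 10, 29.6, 26.9, 19.8 and 31.0 at ZT 14, 41.3, 7.37, 9.82 and 19.6 at ZT 18, and 8.55, 8.48 and 6.40 at ZT 22. ZT 14 lay wholly above ZT 2, 6 and 22, while ZT 18 was spread, with 1 Mu library at the highest value of all. The peak was ZT 14.8 ± 0.482 h (SE; adjusted p = 8.24e-04).

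Zbtb16 (PLZF), a transcription factor, read 31.1, 29.8, 24.4 and 34.6 CPM at ZT 14 and 12.2, 11.7, 11.1 and 13.0 CPM at ZT 2, without overlap, and peaked at ZT 13.4 ± 0.647 h (SE; adjusted p = 0.00761). Tsc22d3 (GILZ), which carries much of the anti-inflammatory action of glucocorticoids, peaked at ZT 14.4 ± 0.696 h (SE; adjusted p = 0.0126). Cdkn1a (p21) peaked later, at ZT 18.6, and stayed called in 7 of the 22 fits (adjusted p up to 0.0971, without Mu ZT 6 replicate 2). Other known targets missed the threshold, among them Map3k6 (amplitude 0.72, peak ZT 13.0, adjusted p = 0.0548), Sgk1 (0.45, ZT 12.6, 0.0992) and Fkbp5 (0.23, ZT 14.8, 0.197). Per1, which is also a target, is described with the clock genes.

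**Figure D4:**
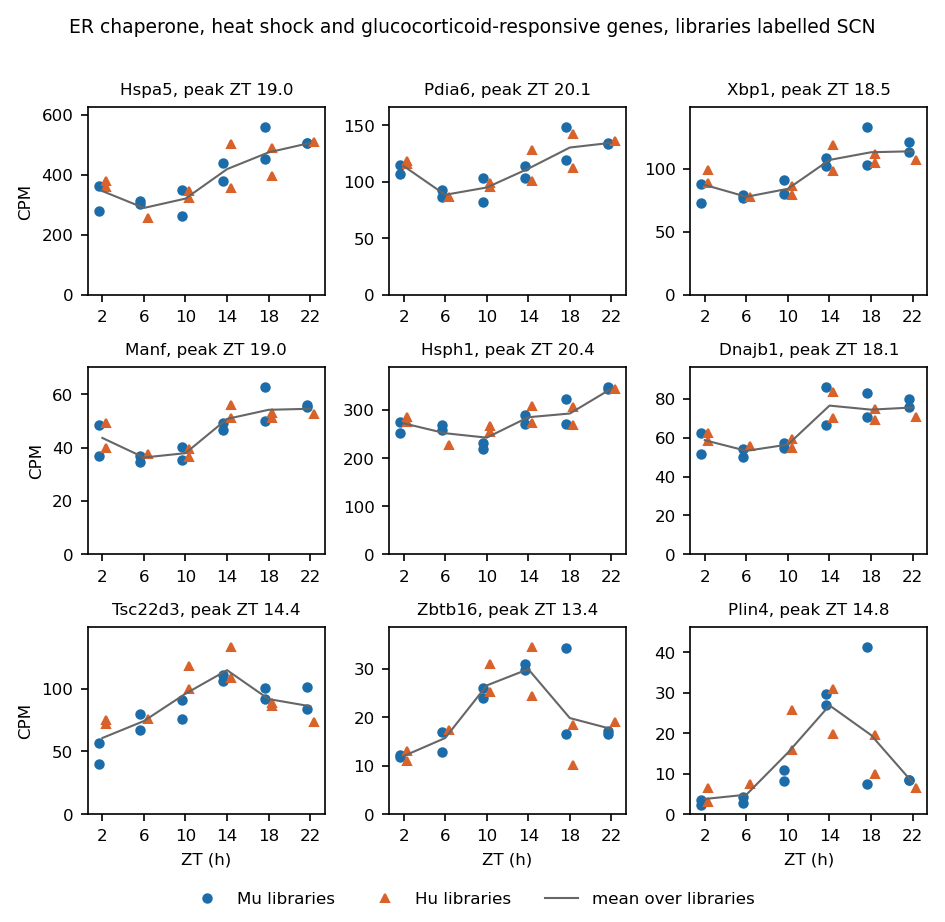
CPM of 4 ER genes (Hspa5, Pdia6, Xbp1, Manf), 2 heat shock genes (Hsph1, Dnajb1) and 3 glucocorticoid-responsive genes (Tsc22d3, Zbtb16, Plin4) in each library labelled SCN against ZT in hours, with circles for Mu, triangles for Hu and a line through the mean of each time. The means of Hspa5, Pdia6, Xbp1 and Manf are lowest at ZT 6 and highest at ZT 18 or 22, and the glucocorticoid-responsive genes are highest at ZT 14.

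The other leading genes of these hours act in metabolism. Fmo2, a flavin monooxygenase, had the smallest p of all 15006 genes. It read 8.07, 7.72, 5.31 and 6.09 CPM at ZT 14 and 1.94, 2.70, 2.26 and 2.13 CPM at ZT 2, with an amplitude of 0.77 ± 0.078 (SE) and a peak at ZT 13.0 ± 0.397 h (SE; adjusted p = 1.33e-04). All 4 libraries of ZT 14 lay above all 4 of ZT 2. Gpt2, the mitochondrial alanine aminotransferase, read 73.4, 73.0, 74.5 and 75.3 CPM at ZT 14 and 51.3 to 58.3 CPM at ZT 6, and peaked at ZT 16.4 ± 0.516 h (SE; adjusted p = 9.86e-04). Mettl7a1, a methyltransferase of lipid droplets and ER, and St3gal4, a sialyltransferase, peaked at ZT 17.2 and 14.7 with amplitudes of 0.32 and 0.20.

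Early in the day the leading gene was Fabp7, the fatty acid binding protein of astrocytes and radial glia. Its CPM, Mu then Hu, was 45.4, 66.8, 48.2 and 35.8 at ZT 2, 41.8, 36.8 and 26.1 at ZT 6, 26.9, 34.0, 19.5 and 15.9 at ZT 10, 14.6, 18.6, 10.7 and 12.5 at ZT 14, 12.9, 15.9, 24.5 and 15.9 at ZT 18, and 33.5, 25.6 and 36.3 at ZT 22. ZT 2 and ZT 22 lay wholly above ZT 14 and 18. The amplitude was 0.85 ± 0.096 (SE) and the peak ZT 2.76 ± 0.448 h (SE; adjusted p = 3.41e-04). The highest value was that of Mu ZT 2 replicate 2, the library rich in astrocyte markers, and the call held without each single library, with an adjusted p of at most 0.00175. None of the 10 astrocyte markers was called, with 1 unadjusted p under 0.05, and their sum was highest at ZT 2, at 3581 ± 1283 CPM (SD, n = 4), against 2772 to 3147 CPM on average at the other times. The summed tanycyte and radial glia markers, Fabp7 among them, were also highest at ZT 2 (192 ± 71.5 CPM, SD, n = 4) and lowest at ZT 14 (127 ± 30.4 CPM, SD, n = 4), and the part of these cells in the result was not tested.

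S100a16, a calcium-binding protein, read 49.8 to 55.4 CPM at ZT 2 and 29.3 to 36.4 CPM at ZT 14, without overlap, and peaked at ZT 2.30 ± 0.506 h (SE; adjusted p = 7.72e-04). Gpr179, an orphan receptor, read 15.1, 10.8 and 12.4 CPM at ZT 22 and 5.42 to 5.74 CPM at ZT 14, with a peak at ZT 0.137 ± 0.603 h (SE; adjusted p = 0.00438). Mmp14, a membrane metalloproteinase, and Cbs, which makes cystathionine from homocysteine, peaked at ZT 1.49 and 0.753 with amplitudes of 0.44 and 0.23. Opalin, an oligodendrocyte membrane protein, was the only called gene of 10 oligodendrocyte markers (amplitude 0.41, peak ZT 4.85, adjusted p = 0.0202). It lost its call in 2 of the 22 fits that left out a library, with an adjusted p of up to 0.0579 without Mu ZT 18 replicate 2.

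Genes of blood vessels made up part of the group that peaked from ZT 6 to 12. Of 10 endothelial markers 3 were called, against 1.52% of all genes tested. They were the transporter Slco1a4 (peak ZT 9.13), the membrane protein Itm2a (ZT 8.70) and the angiopoietin receptor Tek (ZT 6.71). Slco1a4 read 51.2, 42.7, 54.5 and 51.4 CPM at ZT 10 and 28.2, 32.9 and 32.5 CPM at ZT 22, without overlap, with an amplitude of 0.36 ± 0.063 (SE; adjusted p = 0.0108). Tek lost its call in 4 of the 22 fits that left out a library (adjusted p up to 0.0689, without Hu ZT 6 replicate 1). Further vessel genes, picked after their values were seen, lay in the same hours: the efflux pump Abcb1a (amplitude 0.37, peak ZT 9.70), the phosphatase Ptprb (0.40, ZT 8.54) and Cd34 (0.22, ZT 7.89), which stayed called in 21, 14 and 11 of those fits. The summed level of the 10 endothelial markers was itself highest at ZT 6, at 341 ± 44.0 CPM (SD, n = 3), and 247 ± 49.3 CPM (SD, n = 4) at ZT 2, with a range of 198 to 387 CPM over all libraries. None of the 10 was at 0. With the endothelial and the mural and meningeal marker scores as covariates, an alternative chosen after seeing the data, 102 genes were called, with 24 of the 73 genes that peaked from ZT 6 to 12 among them. Of the 69 genes that peaked at ZT 18 to 24, 13 were. Among the 41 genes of ZT 0 to 6 there were 20, and among the 45 of ZT 12 to 18 there were 28. In that fit 5 of the 21 clock genes, 5 of the 20 ER genes, 2 of the 22 heat shock genes and 3 of the 19 glucocorticoid-responsive genes were called.

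The largest amplitudes among the called genes included those of smooth muscle genes, which were high in few libraries. Acta2, smooth muscle actin, read 72.1 CPM in Hu ZT 6 replicate 1 and 88.2 CPM in Mu ZT 10 replicate 1, then 32.6, 23.7, 16.3 and 10.4 CPM in 4 other Mu libraries, and 3.28 to 7.41 CPM in the remaining 16. The fitted amplitude was 1.67 ± 0.362 (SE) with a peak at ZT 8.21 (adjusted p = 0.0442). The call was lost in 14 of the 22 fits, with an adjusted p of up to 0.176 without Hu ZT 6 replicate 1. Tagln and Myh11, both of the contractile apparatus, had amplitudes of 1.64 and 1.51 and were highest in the same 2 libraries; they stayed called in 6 and 12 of the fits, with adjusted p up to 0.171 and 0.120, both without Mu ZT 10 replicate 1. The summed mural and meningeal markers were highest in those libraries too, at 735 and 626 CPM, against 181 to 437 CPM in the others. Beside the covariate fit the part of these cells in the result was not tested.

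Inmt, a methyltransferase, had a similar amplitude, 1.63 ± 0.225 (SE), but held its call in all 22 fits (peak ZT 10.1, adjusted p = 9.86e-04, at most 0.00674). It was low, at 0.185 to 0.224 CPM at ZT 22 and 0.732 to 3.68 CPM at ZT 10. Its highest values, 3.68 and 2.16 CPM, were in Mu ZT 10 replicate 1 and Hu ZT 6 replicate 1. These were also the highest libraries for the smooth muscle genes. Pomc, the precursor of melanocortins and a marker of ARC neurons, had an amplitude of 1.45 ± 0.347 (SE) and was highest in Mu ZT 6 replicate 1, at 56.2 CPM, with 10.2 CPM or less in every other library. It stayed called in 7 of the 22 fits (adjusted p = 0.0485, and up to 0.127 without Hu ZT 6 replicate 1). That Mu library also had the highest summed ARC markers, at 115 CPM, against 44.6 to 102 CPM in the others.

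Among the remaining leading genes of these hours, Edn3 encodes a vasoactive endothelin and Slc40a1 the iron exporter ferroportin. Edn3 read 11.7, 9.37, 8.25 and 6.79 CPM at ZT 10 and 4.44, 4.46, 3.33 and 3.41 CPM at ZT 18, without overlap, and peaked at ZT 9.99 ± 0.477 h (SE; adjusted p = 7.72e-04). Slc40a1 read 13.6, 13.5 and 12.1 CPM at ZT 6 and 6.46, 7.62 and 8.38 CPM at ZT 22, also without overlap, and peaked at ZT 7.65 ± 0.488 h (SE; adjusted p = 9.86e-04). Nhlrc3 peaked at ZT 7.35 with an amplitude of 0.23.

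None of the genes listed for SCN neurons was called, against 1.52% of all genes tested, a share at which short lists can hold none. The lists were 12 neuropeptides, 12 receptors and signalling genes and 13 transcription factors that passed the filter. Of these, 5, 6 and 6 had an unadjusted p under 0.05 in edgeR's test, against 18.8% of all genes. Their median amplitudes, 0.49, 0.29 and 0.25, were above the 0.09 of all genes, and their spread between libraries of 1 time was wide. Avp, the vasopressin gene, read 138, 27.4, 66.2 and 389 CPM in the 4 libraries of ZT 2, and its amplitude of 0.45 had a standard error of 0.300 (adjusted p = 0.565). Vip, the peptide that couples SCN neurons, ran from 1.07 to 22.8 CPM over all libraries (amplitude 0.51 ± 0.340 SE; adjusted p = 0.623). Prok2, at 0.159 to 3.20 CPM, had an adjusted p of 0.282 here, and Grp, gastrin-releasing peptide, at 0.679 to 3.56 CPM, one of 0.182. The amplitudes of the other neuropeptides were 0.76 for Cck, 0.62 for Nmu, 0.60 for Gal, 0.46 for Tac1, 0.32 for Sst, 0.28 for Penk and 0.24 for both Nms and C1ql3. Their adjusted p ran from 0.195 for Penk to 0.796 for Nms, and Nmu was at most 0.958 CPM. Of 21 immediate early genes only Crem, a cAMP-responsive factor, was called (amplitude 0.21, peak ZT 21.3, adjusted p = 0.0148), and of 20 ion channels of neuronal firing, 20 synaptic vesicle genes, 13 GABA-A receptor subunits and 21 cholesterol genes none was, with 2, 1, 1 and 3 at an unadjusted p under 0.05. Of 12 clock output genes Tsc22d3 was called, of 16 collagen and matrix genes P4ha1, a collagen hydroxylase (amplitude 0.23, peak ZT 19.1, adjusted p = 0.0173), and of 11 modifiers of clock proteins none. Among markers of other cells, Fabp7 was called of 9 tanycyte and radial glia markers and Pomc of 9 ARC markers. Markers of neighbouring nuclei (9), ependymal cells (8), microglia (10), neurons (10), choroid plexus (6) and blood (4) held no called gene, with 3, 1, 6, 2, 0 and 1 at an unadjusted p under 0.05, and none of the pituitary markers passed the filter.

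The rhythm was then compared between the arms. No gene of 15006 (0%) passed the edgeR test for a different 24 h rhythm in Hu and Mu. Before adjustment 210 were under 0.05, fewer than the 750.3 expected if no rhythm differed. The reason for this shortfall was not tested, and the absence of calls does not show equal rhythms. DESeq2's likelihood ratio test and limma voom gave no call either. The smallest p-values were those of Shisa5, Myo1a and Zfp970, none of which was called for the common rhythm. Of the 228 genes, 173 had an earlier fitted peak in Hu than in Mu, with a median difference of -1.06 h (Hu minus Mu) and a range from -4.15 to 2.34 h. The same share was not counted over all 15006 genes, so it cannot be read as particular to the called genes. For Ciart the fitted peaks were ZT 8.18 in Hu and ZT 9.69 in Mu, for Nr1d1 ZT 5.12 and 7.35, for Arntl ZT 21.9 and 23.4, and for Hspa5 ZT 19 in both. Genes are not independent replicates, and Hu had a single library at ZT 6 and at ZT 22. The arms fitted alone gave 14 called genes in Mu and 0 in Hu, where 847 genes had an unadjusted p under 0.05. Among 15006 genes, 750.3 are expected under that threshold without any rhythm. A 12 h component was called for 0 genes of 15006 (0%) by edgeR. Before adjustment 258 were under 0.05, against 750.3 expected without such a component, led by the immediate early genes Btg2, Fos and Fosb. DESeq2 called 2.

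The libraries labelled ARC carry the same arm, time and replicate names, and the labels do not say whether they come from the same mice. There the same fit called 683 of 15079 genes (4.53%). Of the 227 genes called in SCN that were tested in ARC, 118 were called in both, which is 52.0% of the SCN list and 17.3% of the ARC list. The fitted peaks lay within 3 h of each other for 117 of the 118, and for 75 of the other 109. Without the 2 libraries that stand apart, 134 of 408 genes (32.8%) were also called in ARC. No gene of 15424 (0%) passed the edgeR test for a different rhythm in SCN and ARC. Before adjustment 1278 were under 0.05, against 771.2 expected if no rhythm differed, the smallest p-values being those of Hpx, Myh2 and Serpina1b. Limma voom called 510, edgeR without the filter on low counts called 2, and edgeR without the 2 libraries that stand apart called 7 (2 without all 3).

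Of the 21 clock genes 12 were called in ARC and 8 in both. All 11 ER genes, all 6 heat shock genes and all 4 glucocorticoid-responsive genes called in SCN were also called in ARC, where 13, 13 and 11 of these lists passed. Arntl peaked at ZT 23.2 in ARC and ZT 22.8 in SCN, Nr1d1 at ZT 6.85 and 6.33, and Per2 at ZT 12.3 and 14.3. Hlf was the clock gene called in SCN and not in ARC (adjusted p = 0.874 there). Hspa5 had an amplitude of 0.22 in ARC and 0.40 in SCN, and Fabp7 one of 0.80 and 0.85, with peaks at ZT 3.15 and 2.76. Plin4 was nearly alike in both, with amplitudes of 1.48 and 1.48 and peaks at ZT 15.2 and 14.8. The vessel genes were not called in ARC: Slco1a4 had an amplitude of 0.12 (adjusted p = 0.501), Itm2a 0.06 (0.837), Tek 0.18 (0.456) and Acta2 0.34 (0.448). The test of the difference between the tissues passed for none of them.

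**Figure D5:**
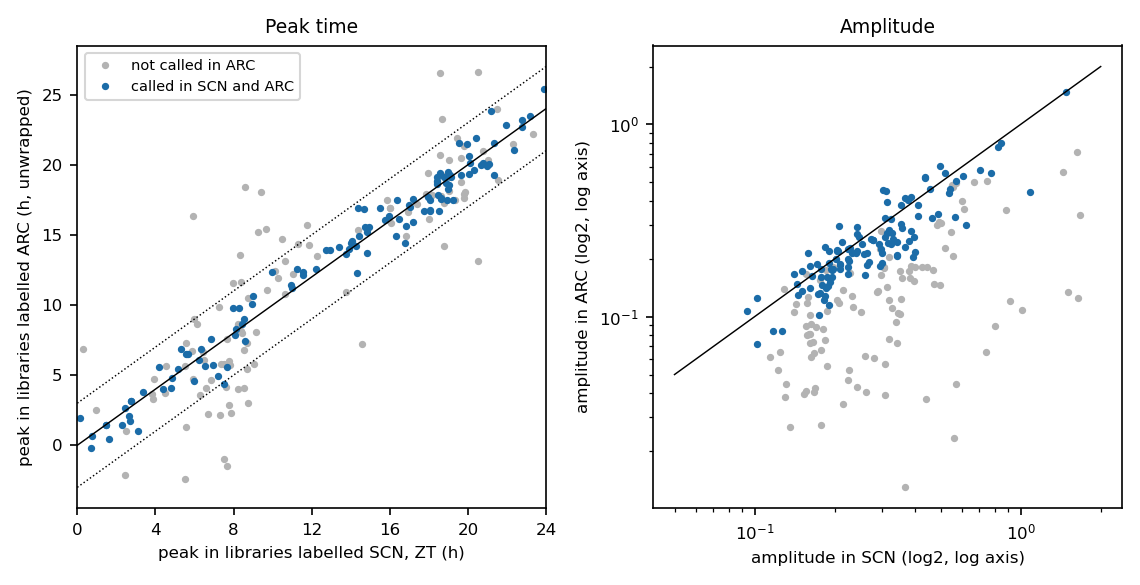
Each point is 1 gene called in the libraries labelled SCN, blue where it was also called in those labelled ARC. Left: fitted peak in ARC against SCN in hours, with the line of equality and dotted lines 3 h away; 117 of the 118 blue points lie between the dotted lines. Right: amplitude in ARC against SCN (log2, both axes log) with the line of equality.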

How the data were processed

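Gene counts came from the table of raw counts per gene that the authors deposited, with 20415 rows, of which 20329 had a symbol in the gene name table. STAR and the mouse builds GRCm38 and mm10 are named, per the submitters' processing notes, without versions, and the counting tool is not given in the sources used here. A further 27 columns of other tissues were not used. The Hu ZT 22 library could be placed in its group only. The labels do not say that libraries come from separate mice, so p-values measure only the spread between libraries. Counts were fitted in edgeR 4.0.16 (R 4.3.3) with TMM scaling and its expression filter, and the model was tested on simulated data: 28%, 74%, 88% and 98% of 50 genes each were recovered at amplitudes of 0.2, 0.4, 0.8 and 1.2, with 7 false calls among 14959 genes. For a difference in rhythm of those sizes between the arms 0%, 22%, 68% and 90% were recovered, and between SCN and ARC 8%, 50%, 82% and 90%. Whether these shares and the number of false calls carry over to the measured libraries was not tested. DESeq2 1.42.0 and limma 3.58.1 were alternatives. Named were all clock genes, the 5 genes of smallest p in each 6 h window of peak time, the 6 of largest amplitude, up to 4 called genes of each list, all SCN neuropeptides, the genes beside the threshold, and the 3 of smallest p in each comparison of rhythms. Other genes were named after their values were seen, and 1 clock gene is not reported here by name. The members and lists were chosen with earlier results of these data known. Promoter windows came from RefSeq; figures were drawn with matplotlib 3.10.9 in Python 3.11.15.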

Additional observations from a re-analysis of the deposited data

How the results depend on the processing

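The number of genes with a common rhythm, 228, depended on the tool. DESeq2 called 806 genes, with all 228 among them, and limma voom with sample weights called 2428, with 225 among them. Scores of the oligodendrocyte markers and of Six6, Lhx1 and Zfhx3 as covariates left 144 (109 shared). Scores of vessel markers, chosen after seeing the data, left 102 (85 shared). Time as a factor gave 31, and a test of 24 h and 12 h terms together gave 47. Mu alone gave 14 and Hu alone 0, with fewer libraries. Without the 2 libraries that stand apart it was 408, and 207 without the 3 farthest from the median. Leaving out ZT 6, 10, 14, 18 or 22, also chosen after seeing the data, gave 39, 47, 61, 74 or 59. Leaving out each library gave 109 to 445. The count in ARC, 683, was 429 to 814 when each library was left out. The cause of these shifts was not tested. A different rhythm between SCN and ARC was called for 2 genes without the filter on low counts, 510 with limma voom, 7 without the 2 libraries, 2 without the 3 and 0 to 1 when each library was left out, and a 12 h component for 2 genes with DESeq2. For the 80 named genes followed through the alternatives, no peak of a called gene moved by over 6 h.

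With the replicate number as a block the common rhythm was called for 148 genes, 134 of them shared. Deviations of same-numbered Hu and Mu libraries correlated at -0.27 to 0.40 (mean 0.12) over the 4 times with 2 libraries in each arm, 2 of them above 0.1. Those of SCN and ARC correlated at -0.18 to 0.32 (mean 0.13) over 10 arms and times, 6 of them above 0.1. The numbers were not taken to pair the samples, but these values do not settle whether SCN and ARC libraries share mice. If they do, the main tests of SCN against ARC ignored that pairing.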
